A study of Mus musculus with 25 samples.

Results

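Sperm RNA was examined for 10 genes of the DNA methylation machinery: the maintenance pair Dnmt1 and Uhrf1, the de novo genes Dnmt3a, Dnmt3b and Dnmt3l, the dioxygenases Tet1, Tet2 and Tet3, and the imprint guards Trim28 and Zfp57. They were chosen by symbol from the 24358 genes of the deposited table, and all 10 had a usable estimate in every condition. Mice of the strains C57BL/6J and FVB/N descended from pregnant females that received the phthalate di-(2-ethylhexyl) phthalate (DEHP) at 300 mg/kg/day (D300) or corn oil alone (CTL) by mouth on embryonic days 9 to 19. The 5 conditions are the control and exposed F1 of C57BL/6J (C57.CTL.F1 and C57.D300.F1), its exposed-lineage F2 (C57.D300.F2), and the FVB/N F1, either control (FVB.CTL.F1) or exposed (FVB.D300.F1). The D300 F1 males were themselves exposed in the womb. The F2 males were sired by exposed C57BL/6J F1 males on newly ordered females, and no F2 control was included. Sperm was swum out of the cauda epididymis at 14 weeks and its RNA was sequenced as all-RNA-seq, which captures RNAs whatever their ends. Each condition had 5 libraries, 25 in all. Both C57BL/6J F1 conditions (10 libraries) were re-analysed from earlier work, and the other 15 libraries were newly made.

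In mammals, Dnmt3a and Dnmt3b place methyl groups on unmethylated CpG dinucleotides, and the catalytically inactive partner Dnmt3l guides them in germ cells. Uhrf1 reads the hemimethylated CpG left behind by replication and brings Dnmt1 to copy the mark, while the Tet enzymes oxidise methylcytosine towards its removal. After fertilisation, Zfp57 binds methylated imprinted regions and recruits Trim28, which shields them from the genome-wide loss of methylation.

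These genes concern CpG methylation, and their own start regions differed in CpG content. Promoters of all 10 genes were found among RefSeq sequences of GRCm38.p6 (250 bases before to 50 after each start), with 19 start sites in total. The median promoter of the 32851 in that collection held 7 CpG, and the upper quartile was 20. At the CpG-richest start of each gene, Tet2 held 57 CpG, Dnmt3a 47, Dnmt1 and Uhrf1 33 each, Dnmt3b 30, Trim28 23, Tet3 22, Tet1 17, Zfp57 9 and Dnmt3l 6. The median and quartile are over single starts, so the richest start of a gene is favoured beside them. Other starts held 46 and 18 CpG at Dnmt3a, 12 and 2 at Dnmt1, 12 at Uhrf1, 6 and 4 at Zfp57, and 4 and 3 at Dnmt3l. E2F sequences (TTTGGCGC, TTTCGCGC, TTTCCCGC or TTTGCCGC on either strand) occurred in 2.26% of all promoters. Among the 10 genes they occurred at Dnmt1, at positions -219 and 34 from the start, and at Uhrf1, at -185. The GC box GGGCGG, on either strand, was in 35.7% of all promoters and, among the 10 genes, at a start of all but Zfp57. The methylation-dependent ZFP57 hexamer TGCCGC was in 11.6% and, among the 10 genes, at Dnmt3a, Tet3 and Trim28. Genes with several starts are favoured beside these shares. These are matches of letters and no evidence of binding. The regions shown are those of the maintenance pair, whose counts lay in opposite directions between the F1 conditions of the strains, with the E2F letters in capitals, and the starts of Tet2, the richest in CpG of the 10 genes, and of Zfp57, the reader of methylated imprints, with each CpG in capitals. The Dnmt1 stretch is chr9:20952824-20952853 on the minus strand, inside an exon of another Dnmt1 transcript. That of Uhrf1 is chr17:56304063-56304312 on the plus strand. Tet2 is shown at chr3:133544391-133544640 on the minus strand, with 51 CpG in 250 bases, and Zfp57 at chr17:37002275-37002451 on the plus strand, with 4 CpG in the 177 bases shown, which leave out exon sequence.
Dnmt1: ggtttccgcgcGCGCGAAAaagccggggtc
Uhrf1: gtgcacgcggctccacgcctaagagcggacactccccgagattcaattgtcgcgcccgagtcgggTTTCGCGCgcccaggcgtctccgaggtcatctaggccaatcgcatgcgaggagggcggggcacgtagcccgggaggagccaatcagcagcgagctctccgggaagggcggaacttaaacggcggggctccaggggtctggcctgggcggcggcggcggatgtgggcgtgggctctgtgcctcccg
Tet2: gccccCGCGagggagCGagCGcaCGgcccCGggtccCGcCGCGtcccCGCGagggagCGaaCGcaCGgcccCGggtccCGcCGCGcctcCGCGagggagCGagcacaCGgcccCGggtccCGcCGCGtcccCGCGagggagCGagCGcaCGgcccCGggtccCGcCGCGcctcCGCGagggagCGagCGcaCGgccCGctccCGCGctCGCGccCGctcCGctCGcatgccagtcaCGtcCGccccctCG
Zfp57: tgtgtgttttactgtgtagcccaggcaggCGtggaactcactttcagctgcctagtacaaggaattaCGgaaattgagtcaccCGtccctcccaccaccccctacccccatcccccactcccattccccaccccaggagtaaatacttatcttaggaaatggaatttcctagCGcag

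Each gene has 1 deposited value per condition, an estimated number of fragments in which Cuffdiff combined and scaled the 5 libraries. No spread between libraries can be computed from them, so no test was made and no difference has a replicate check. The errors given as ± are 1 SD of a count under Cuffdiff's variance model (model SD). A difference beyond the model SD is a difference of counts larger than its own SD under this model. Log2 ratios have 1 added to each count. A gene was compared if it had at least 10 counts in 1 of both conditions and was called different at 1 log2 unit or more. Counts summed to between 6921688 and 8602900 per condition. The sperm label was checked on 10 spermatid and sperm markers, all detected in every condition, with Odf1, a protein of the sperm tail, between 2589 counts in FVB.CTL.F1 and 21227 in C57.CTL.F1. The summed level of this list was 92624 in C57BL/6J controls, 77561 after DEHP and 31216 in the F2, and 7990 in FVB/N controls and 9483 after DEHP. RNA of other tissues was also present. Liver markers summed to 195514 and 181742 in the control and exposed C57BL/6J F1 against 1715 to 5138 in the others, seminal vesicle markers to 214761 in C57.CTL.F1 against 67.6 to 496, and epididymal markers to 36387 in FVB.D300.F1 against 101 to 217, with 2 or 3 of 6 at or under the detection limit of 3 counts. Leukocyte markers summed to 29168 to 45385, of which Cd52, a gene that epididymal epithelium also makes, gave 24861 to 43515. Smooth muscle and connective tissue markers summed to 20209 to 29959, and spermatogonia and spermatocyte markers to 658 to 1416. Of the last list, Gfra1 gave 847 of the 1416 counts in FVB.D300.F1 and 81.8 of the 658 in FVB.CTL.F1. In such bulk RNA, fewer cells of a type and less RNA per cell cannot be told apart.

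Measured per kilobase of exon, which allows a rough comparison of genes, Trim28 had the highest level of the 10 and Dnmt3l the lowest. The length is that of all annotated exons of a gene together, not of the transcripts present, so close ranks can depend on the annotation. The mean over the 5 conditions was 192 counts per kb for Trim28, 78.8 for Dnmt1, 42.6 for Tet2, 39.9 for Dnmt3a, 25.6 for Tet3, 22.1 for Uhrf1, 7.31 for Zfp57, 5.82 for Dnmt3b, 5.06 for Tet1 and 2.90 for Dnmt3l. Within the Tet family, Tet2 was above Tet3 and Tet3 above Tet1 in all 5 conditions. Uhrf1 was above Tet3 in C57.CTL.F1 (25.9 against 19.3 counts per kb) and below it in FVB.D300.F1 (16.9 against 32.1). Likewise, Zfp57 was above Tet1 in C57.CTL.F1 (7.07 against 3.37) and below it in FVB.D300.F1 (4.83 against 6.72).

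**Figure D1:**
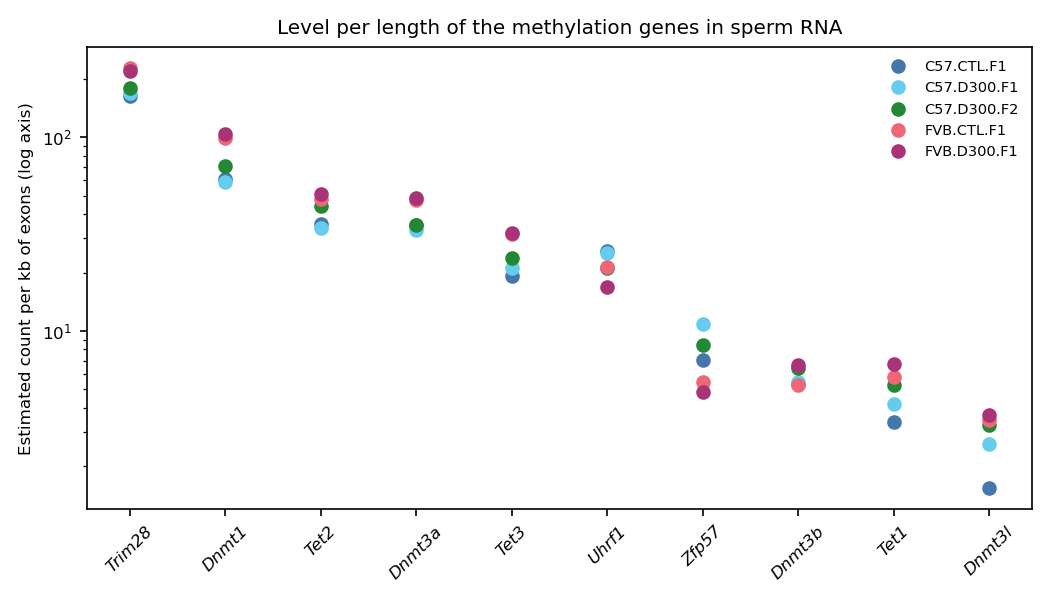
Estimated count per kb of exon (log axis) for the 10 genes, ordered by their mean, with 1 point per condition. Trim28 lies at the top with a mean of 192 and Dnmt3l at the bottom with 2.90. Tet3 and Uhrf1 change places between conditions, as do Zfp57, Dnmt3b and Tet1 among themselves.

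Dnmt1 (chromosome 9, 20907209 to 20959888, minus strand, GRCm38) encodes the methyltransferase that copies methylation at replication. Its count was 448 ± 105 in C57BL/6J controls, 432 ± 101 after DEHP and 526 ± 122 in the F2 of that strain, 736 ± 178 in FVB/N controls and 765 ± 185 after DEHP. Both FVB/N values were above all 3 C57BL/6J values. Of the 10 pairs of conditions, 5 differed by more than the model SD of their difference, the most of any of the 10 genes, and all 5 set an FVB/N against a C57BL/6J condition. Uhrf1 (chromosome 17, 56303321 to 56323486, plus strand) encodes the reader that places Dnmt1 on hemimethylated CpG. Its count was 110.5 ± 28.9, 108 ± 28.6, 89.5 ± 24.0, 91.2 ± 25.3 and 71.9 ± 20.4 in the same order of conditions. Unlike Dnmt1, it was highest in both C57BL/6J F1 conditions, and 2 pairs, FVB.D300.F1 against either of these, differed beyond the model SD.

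The de novo genes split into an abundant and 2 scarce transcripts. Dnmt3a (chromosome 12, 3806007 to 3914443, plus strand), the main de novo enzyme of male germ cells, had 586 ± 140.3 counts in C57BL/6J controls, 554 ± 131 after DEHP and 585 ± 140.0 in the F2 of that strain, 793 ± 194 in FVB/N controls and 805 ± 200.2 after DEHP. Its 3 C57BL/6J values lay close together and below both FVB/N values, but of the 10 pairs only those of C57.D300.F1 with each FVB/N condition differed beyond the model SD. Dnmt3b (chromosome 2, 153649450 to 153687730, plus strand), its paralogue with a part in repeat methylation, had 27.2 ± 10.3, 27.8 ± 10.4, 32.8 ± 11.3, 26.8 ± 10.2 and 34.2 ± 12.0 counts. No pair of conditions differed beyond the model SD for Dnmt3b, and its highest value was 1.28 times its lowest. Dnmt3l (chromosome 10, 78041947 to 78063622, plus strand), which is needed to set paternal imprints before birth, had 4.58 ± 4.38, 7.72 ± 5.20, 9.76 ± 5.83, 10.3 ± 7.05 and 10.9 ± 6.66 counts. It stayed under 10 counts in all 3 C57BL/6J conditions, and no pair differed beyond the model SD. Its exons overlap those of Aire on the opposite strand over 67 bases, 2.24% of its exon length, and the authors mapped reads by strand.

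On the deposited scale the Tet genes were all higher in FVB/N than in C57BL/6J, and with equal totals Tet2 against the F2 turned around. Tet1 (chromosome 10, 62804570 to 62908996, minus strand), active in primordial germ cells, had 52.1 ± 16.0 counts in C57BL/6J controls, 64.4 ± 18.8 after DEHP and 81.0 ± 22.4 in the F2 of that strain, 89.4 ± 23.6 in FVB/N controls and 104 ± 27.7 after DEHP. The highest Tet1 value was 1.99 times the lowest, and C57.CTL.F1 stood below C57.D300.F2 and both FVB/N conditions by more than the model SD. Tet2 (chromosome 3, 133463679 to 133545139, minus strand), the family member widely expressed in blood cells, had 603 ± 142, 572 ± 135, 747 ± 179, 815 ± 205 and 859 ± 209 counts. Tet3 (chromosome 6, 83362373 to 83459084, minus strand), which acts on the paternal genome of the zygote as maternal protein, had 322 ± 74.4, 352 ± 81.1, 398 ± 92.5, 531 ± 124 and 536 ± 125 counts. For Tet2, FVB.D300.F1 exceeded both C57BL/6J F1 conditions beyond the model SD, and for Tet3 each FVB/N condition exceeded each of them.

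The imprint guards did not share an order. Trim28 (chromosome 7, 12999114 to 13031035, plus strand), the corepressor of KRAB zinc finger proteins, had 681 ± 162 counts in C57BL/6J controls, 704 ± 166 after DEHP and 745 ± 176 in the F2 of that strain, 949.7 ± 231 in FVB/N controls and 919 ± 222 after DEHP. Trim28 had the narrowest range among the 5 most abundant genes, 1.40 times from lowest to highest, and no pair beyond the model SD. Zfp57 (chromosome 17, 37001163 to 37010635, plus strand), the zinc finger protein that reads methylated imprints, had 26.8 ± 9.68, 40.8 ± 13.3, 32.0 ± 11.0, 20.6 ± 8.20 and 18.3 ± 7.44 counts. It was lowest in both FVB/N conditions, where Trim28 was highest, and C57.D300.F1 exceeded each of them beyond the model SD. For none of the 10 genes did conditions next to each other in the order of levels differ beyond the model SD.

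**Figure D2:**
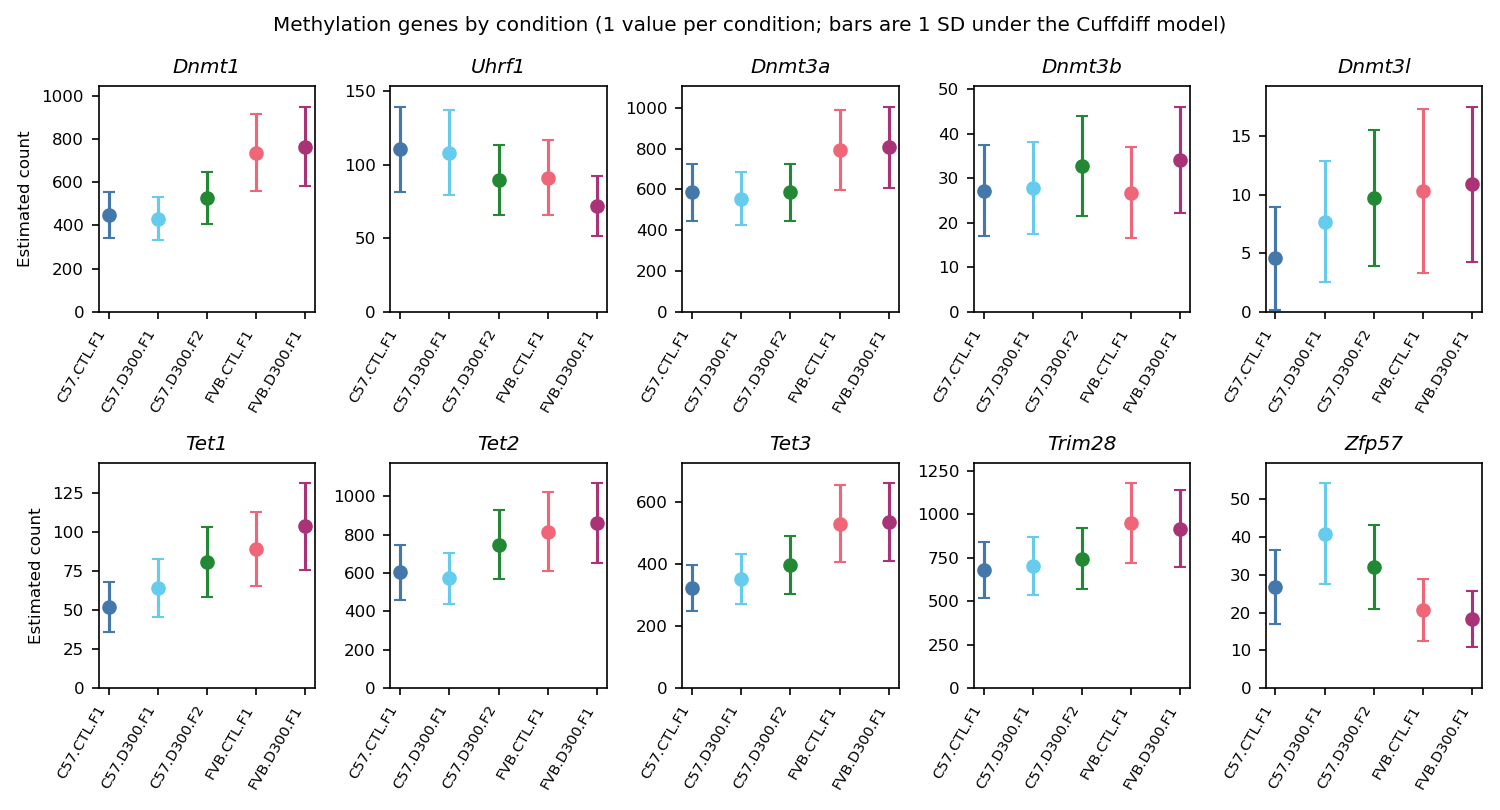
Estimated count of each of the 10 genes (linear axes from 0, a scale per gene) in the 5 conditions. Points are the authors' value per condition and bars 1 model SD. Dnmt1, Dnmt3a, Tet1, Tet2, Tet3 and Trim28 are highest in both FVB/N conditions (for Tet2 against the F2 not under equal totals), whereas Zfp57 is lowest there, at 20.6 and 18.3 counts. Dnmt3l is also highest there, at 10.3 and 10.9 counts against 9.76 in the F2, but against the F2 not under equal totals.

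The model SD was 0.231 to 0.956 of the count over the 50 values of these genes, with a median of 0.257, and the largest fractions were those of Dnmt3l. Against the 200 genes nearest in count, the fraction was 0.958 to 1.44 times theirs, with a median of 0.998. Dnmt3l was the highest in every condition, between 1.21 and 1.44 times.

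Prenatal DEHP was first compared with corn oil within C57BL/6J, where both conditions were re-analysed libraries. None of the 9 genes compared was called, beside 2.24% of the 16825 genes compared in all, and none differed beyond its model SD, which 6.57% of all genes did. The median log2 ratio was 0.03 over the 9 genes and -0.01 over all genes. Dnmt1, Uhrf1, Dnmt3a and Tet2 had log2 ratios of -0.05, -0.03, -0.08 and -0.08 (model SDs 0.48 to 0.53), and these 4 turn positive when conditions are scaled to equal totals. Tet1 had 0.30 ± 0.60 and Tet3 0.13 ± 0.47. The largest ratio belonged to Zfp57, 0.59 ± 0.68, from 26.8 to 40.8 counts, and 5.29% of all genes had a ratio at least as high. Dnmt3l was not compared, since it had under 10 counts in both conditions. The summed seminal vesicle markers were 214761 and 67.6 in the same conditions, while the leukocyte markers had a median log2 ratio of 0.55 with 1 of 8 called higher. The part of these lists in the ratios of the 10 genes was not tested.

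In FVB/N, where both conditions were newly made libraries, DEHP left all 10 genes uncalled, beside 2.77% of 16471 genes, and none differed beyond its model SD, beside 5.65%. The median was 0.04 over the 10 genes and 0.00 over all genes. Uhrf1 had the lowest ratio, -0.34 ± 0.57, from 91.2 to 71.9 counts, and 9.76% of all genes were as low. Dnmt3b had the highest, 0.34 ± 0.72, followed by Tet1 at 0.21 ± 0.54. Dnmt1, Dnmt3a, Tet2, Tet3 and Trim28 were all within 0.08 log2 units of no difference. Zfp57 had -0.17 ± 0.78, against 0.59 in C57BL/6J. All 6 epididymal markers were called higher in FVB.D300.F1, where they summed to 36387 against 101 in FVB.CTL.F1, spermatid and sperm markers had a median of 0.43 with 4 of 10 higher beyond the model SD, and liver markers a median of -0.59 with 3 of 7 lower beyond it. Dividing-cell markers had a median of -0.25 with 0 of 8 called. Whether these bear on the methylation genes was not tested.

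The difference between the strains' DEHP ratios, FVB/N minus C57BL/6J, reached 1 log2 unit for none of the 10 genes, beside 7.38% of 17556 genes. It was largest for Zfp57 at -0.76 ± 1.04, then Dnmt3l at -0.57 ± 1.86. Uhrf1 had -0.31 ± 0.78 and Dnmt3b 0.31 ± 1.03, and the other 6 genes were between -0.11 and 0.15. All were smaller than their model SD.

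**Figure D3:**
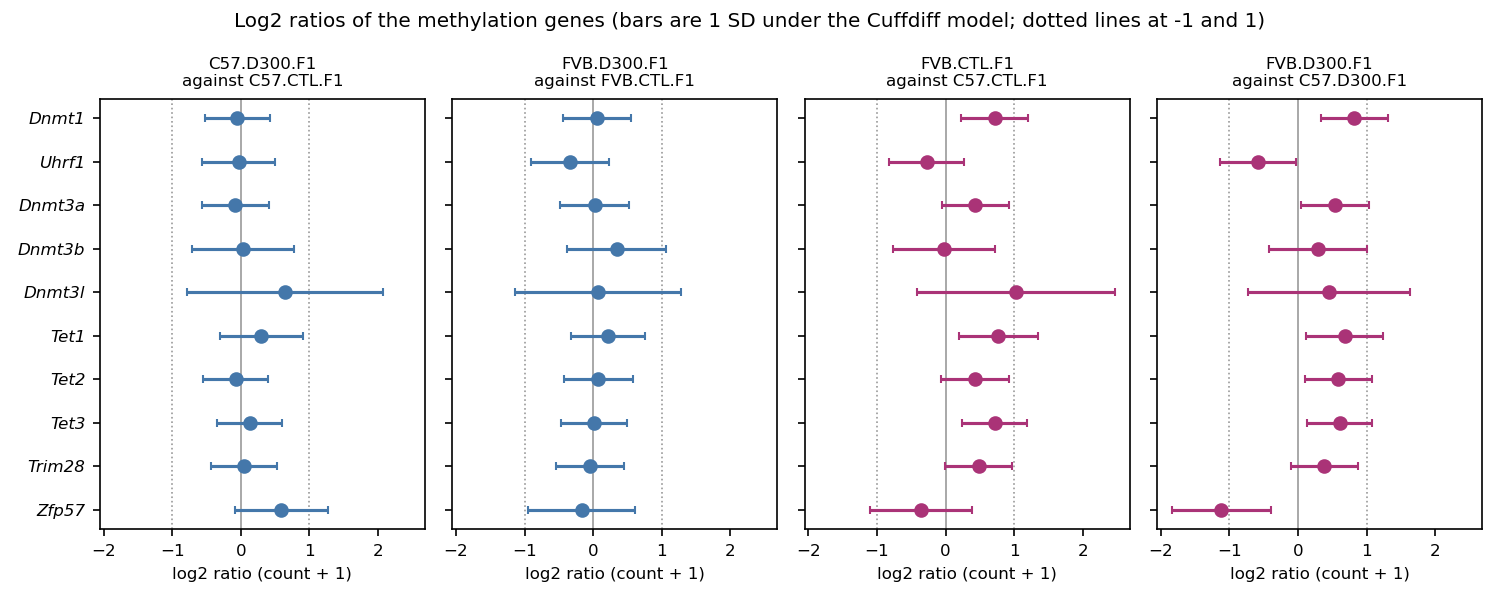
Log2 ratios (count + 1) of the 10 genes with 1 model SD, for DEHP against control in each strain (blue) and FVB/N against C57BL/6J in control and DEHP conditions (purple). Dotted lines mark -1 and 1. The DEHP ratios scatter around 0 within their SDs, and the strain ratios lie mainly above 0, except those of Uhrf1 and Zfp57 and, in the controls, Dnmt3b.

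Larger differences separated the strains, where FVB/N libraries were newly made and C57BL/6J F1 libraries re-analysed, so that strain and library set cannot be told apart. Between the controls, 1 of the 10 genes was called, Dnmt3l at 1.02 ± 1.44, beside 26.3% of 17086 genes in either direction and 7.50% called higher. This call rests on 4.58 against 10.3 counts and is within the model SD. Dnmt1 (0.71 ± 0.48), Tet1 (0.77 ± 0.58) and Tet3 (0.72 ± 0.47) were higher in FVB/N beyond their model SD, and 0 of the 10 were lower beyond it, beside 15.9% and 25.3% of all genes (41.2% in either direction). Dnmt3a, Tet2 and Trim28 had 0.43, 0.43 and 0.48, each just within its SD of 0.49 to 0.50. Uhrf1, Dnmt3b and Zfp57 had -0.27 ± 0.54, -0.02 ± 0.75 and -0.36 ± 0.74, and Dnmt3b turns positive under another scaling. The median over the 10 genes was 0.46, and that over all genes -0.03.

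Between the DEHP conditions of the strains, Zfp57 was called lower in FVB/N, at -1.12 ± 0.72 and 18.3 against 40.8 counts, beside 31.9% of 17377 genes called in either direction and 19.9% called lower. A ratio at most as low as that of Zfp57 was found in 17.8% of all genes. The call ends with a pseudocount of 10 (-0.85), a minimum of 100 counts or a threshold of 2 log2 units. Beyond the model SD, Dnmt1 (0.82), Dnmt3a (0.54), Tet1 (0.68), Tet2 (0.59) and Tet3 (0.61) were higher and Uhrf1 (-0.58) and Zfp57 lower, 7 of 10 genes beside 47.2% of all. Their directions were the same under every scaling tried. The median was 0.49 over the 10 genes and -0.07 over all genes. As both strain comparisons use different samples but the same library sets, they share that limit.

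Several marker lists moved between the same conditions. Between the controls, all 10 spermatid and sperm markers were called lower in FVB/N, with a median of -3.03, as were 5 of 8 leukocyte markers with a median of -1.10. Of the 6 epithelial markers, 3 were called higher, with a median of 0.97, and their sum went from 11201 to 18229. Dividing-cell markers, to which Uhrf1 and Dnmt1 are usually tied through replication, were called lower for 2 of 8, with a median of -0.45 in the controls and -0.85 in the DEHP conditions. Their sum was 1095, 1177, 1025, 833 and 730 in the usual order of conditions. Uhrf1 and this sum were both lowest in FVB.D300.F1, while Dnmt1 was highest there. Not all genes of the list followed the sum. Mcm2 and Mcm5 had 155 and 53.5 counts in C57.CTL.F1 and more in FVB.D300.F1, 170 and 80.6, where the other genes of the list had fewer. The part of these lists in the strain ratios was not tested.

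**Figure D4:**
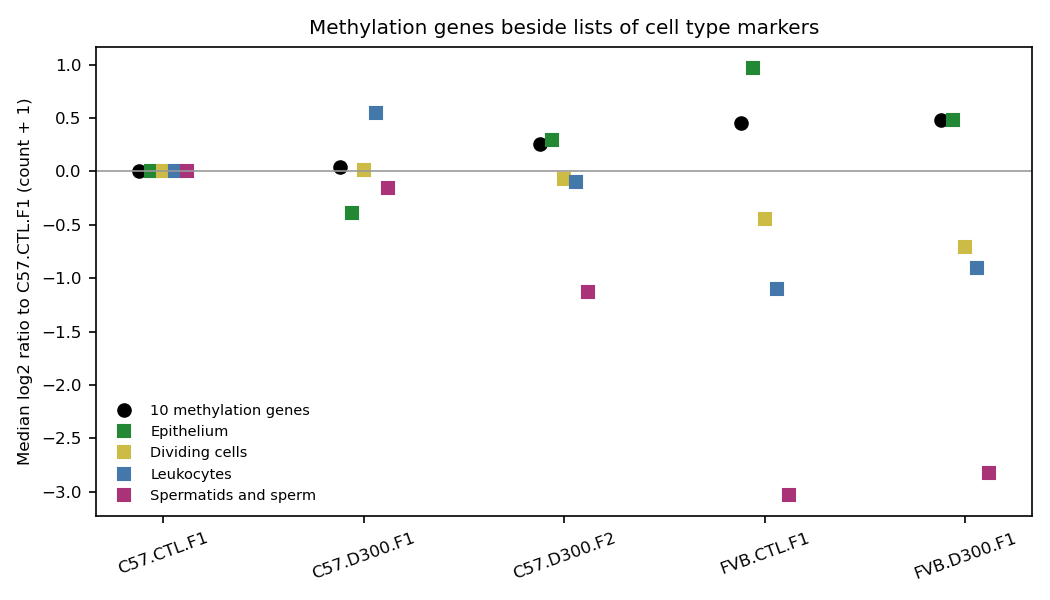
Median log2 ratio (count + 1) to C57.CTL.F1 for the 10 methylation genes (circles) and 4 lists of cell type markers (squares) in each condition. In FVB.CTL.F1 the methylation genes lie at 0.46 and the epithelial markers at 0.97, while the spermatid and sperm markers lie at -3.03. In C57.D300.F1 the methylation genes lie at 0.04 and the epithelial markers at -0.39. The marker lists not drawn all have medians below 0 in FVB.CTL.F1.

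Ratios of counts within a condition do not depend on the scaling between conditions. These counts were not divided by exon length, so the percentages do not compare the levels of the genes. Only their changes between conditions are read here. The ratio of Uhrf1 to Dnmt1 counts was 24.7% in C57BL/6J controls, 25.0% after DEHP and 17.0% in the F2, and 12.4% in FVB/N controls and 9.41% after DEHP. The maintenance reader was less abundant relative to its enzyme in FVB/N than in the C57BL/6J F1 conditions. The change was -0.99 ± 0.73 log2 units between controls and -1.41 ± 0.74 between DEHP conditions, both beyond the model SD. Of all single genes, 41.2% and 47.2% differed beyond the model SD in these comparisons. No such share was computed for ratios of gene pairs. Zfp57 counts were 3.93%, 5.80%, 4.29%, 2.17% and 1.99% of Trim28 counts. The strain change of this ratio was -0.86 ± 0.92 between controls, within the model SD, and -1.54 ± 0.90 between DEHP conditions, beyond it. Against C57.D300.F2, within the newly made libraries, Uhrf1 over Dnmt1 differed by -0.46 ± 0.74 in FVB.CTL.F1, within the model SD, and by -0.85 ± 0.74 in FVB.D300.F1. Zfp57 over Trim28 differed by -0.98 ± 0.90 and -1.11 ± 0.91. Beside these, 29.2% and 32.1% of all single genes differed beyond the model SD. The sum of the Tet genes over that of Dnmt1, Dnmt3a and Dnmt3b was 92.1%, 97.4%, 107%, 92.2% and 93.4%. This ratio, in which longer genes weigh more, changed by 0.22 log2 units at most between the conditions compared, under its SD of 0.47 to 0.48. Tet1 counts were 8.63% of Tet2 counts in C57.CTL.F1 and 10.8% to 12.1% in the others. Dnmt3b counts were 3.38% to 5.60% of Dnmt3a counts, in both cases without a change beyond the model SD.

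**Figure D5:**
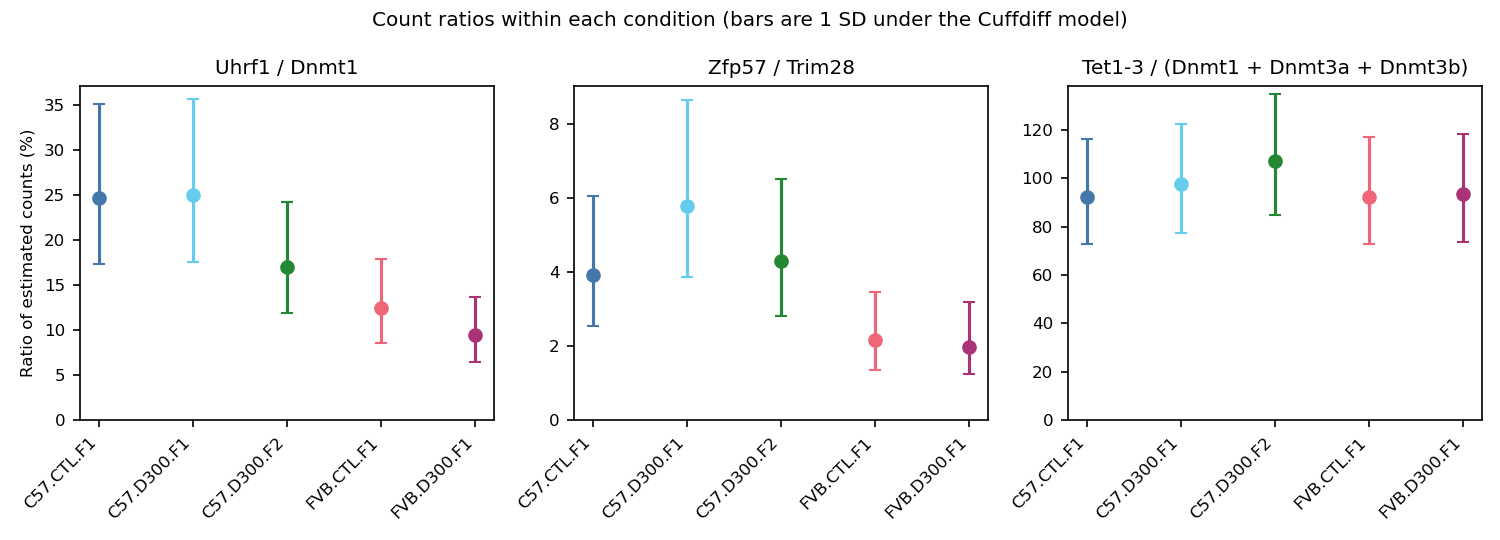
Ratios of estimated counts within each condition, in percent, with 1 model SD (computed on the log scale) as bars. Counts are not divided by exon length. Uhrf1 over Dnmt1 goes from 24.7% in C57.CTL.F1 to 9.41% in FVB.D300.F1, while the Tet over Dnmt ratio stays between 92.1% and 107%.

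The second generation of the exposed C57BL/6J line was compared with both F1 conditions, which were re-analysed. Generation, DEHP exposure and library set cannot be told apart here. C57.CTL.F1 males came from an unexposed line, and C57.D300.F1 males were themselves exposed in the womb. Against C57.CTL.F1, none of 9 genes was called, beside 14.3% of 17114 genes. Tet1 (0.63 ± 0.59) differed beyond its model SD, which 26.9% of all genes did. Tet2 and Tet3 had 0.31 and 0.30, Dnmt1 0.23, Dnmt3b 0.26, Zfp57 0.25, Trim28 0.13, Dnmt3a 0.00 and Uhrf1 -0.30, and the directions of Dnmt3a and Uhrf1 depend on the scaling. The median over the 9 genes was 0.25, and over all genes -0.04. Against C57.D300.F1, 0 of 9 genes were called, beside 11.0% of 17133 genes, and none differed beyond the model SD, beside 22.2%. Tet2 (0.38 ± 0.48) and Tet1 (0.33 ± 0.57) had the highest ratios and Zfp57 (-0.34 ± 0.66) the lowest. Spermatid and sperm markers were lower in the F2 condition than in the F1 controls, 7 of 10 called with a median of -1.12, and all 7 liver markers were called lower, with a median of -5.03. Their part in these ratios was not tested.

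Within the newly made libraries, FVB/N could be set against C57.D300.F2, although these conditions also differ in generation and exposure. FVB.CTL.F1 males came from an unexposed line. FVB.D300.F1 males were exposed in the womb, whereas the F2 males had exposed sires. None of the 10 genes was called in FVB.CTL.F1 against C57.D300.F2, beside 15.8% of 16969 genes, and none differed beyond the model SD, beside 29.2%. The median was 0.13, and with equal totals 0.01 with 5 genes in place of 8 above 0. Dnmt1 had 0.48 ± 0.48, Dnmt3a 0.44 ± 0.49 and Tet3 0.42 ± 0.48, and Zfp57 had -0.61 ± 0.73. In FVB.D300.F1 against C57.D300.F2, again 0 of 10 were called, beside 17.6% of 17122 genes, with a median of 0.25. With equal totals Zfp57 was called here at -1.02, the median was -0.01 and 5 genes in place of 8 lay above 0. Dnmt1 (0.54 ± 0.48) was higher and Zfp57 (-0.77 ± 0.74) lower beyond the model SD, 2 of 10 genes beside 32.1% of all. Uhrf1 had 0.03 ± 0.55 and -0.31 ± 0.56 in these comparisons. The strain ratios of Tet1 and Tet2 were smaller here than against the re-analysed F1 libraries, 0.14 and 0.13 in place of 0.77 and 0.43 for FVB.CTL.F1. All 10 spermatid and sperm markers were called lower in FVB.CTL.F1, with a median of -1.78, as were 4 of 7 leukocyte and 6 of 7 liver markers, and the other liver marker was called higher. In FVB.D300.F1, 8 of 10 spermatid and sperm markers and 6 of 7 liver markers were called lower and 6 of 6 epididymal markers higher. The part of these lists in the ratios was not tested.

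Genes around the pathway were taken from 5 lists of 48 genes, 47 of them in the table: cofactors of methylation, imprint and KRAB corepressor partners, demethylation and base excision, readers of methylated DNA, and methyl donor supply. After DEHP in C57BL/6J, none of 45 compared genes was called, beside 2.24% of all genes. After DEHP in FVB/N, 2 of 45 were called, both lower and both on the demethylation list, beside 2.77% of all genes. These were the stress gene Gadd45b, from 57.3 to 26.0 counts (-1.11), and Idh1, from 1246 to 585 (-1.09), which makes the 2-oxoglutarate that Tet enzymes consume. In C57BL/6J, Idh1 had 1546 counts in controls, 1243 after DEHP and 482 in the F2.

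Between the strains' controls, 0 of 46 genes of the lists were called higher and 3 lower, beside 7.50% and 18.8% of all genes. These were Apobec1 (-2.21), a cytidine deaminase, and the methionine cycle genes Mat1a (-4.01) and Ahcy (-3.18). Between the DEHP conditions, 1 of 45 was higher, Uhrf2 (1.28), the paralogue of Uhrf1, and 4 were lower, beside 31.9% of all genes called, namely Mat1a (-4.45), Ahcy (-3.37), Apobec1 (-1.69) and Idh1 (-1.09). Uhrf2 had 836, 771, 1111, 1570 and 1877 counts over the conditions, highest in FVB.D300.F1, where Uhrf1 was lowest. In C57.D300.F2, 3 of 45 were lower and 0 higher against each F1 condition of the strain, beside 14.3% of all genes called against controls and 11.0% against the exposed F1. These were Idh1, Mat1a and Ahcy, at -1.68, -4.02 and -2.32 against C57.CTL.F1. Mat1a, the liver form of methionine adenosyltransferase, had 3120 and 3242 counts in the control and exposed C57BL/6J F1 and 147 to 192 in the others. All 7 liver markers were called lower in the comparisons where Mat1a was, and their part in it was not tested. Within the newly made libraries, FVB.CTL.F1 against C57.D300.F2 had Idh1 called higher (1.37) and Apobec1 (-1.24) and Ctcfl (-1.04) called lower. These were 3 of 46 beside 15.8% of all genes. The call of Ctcfl, a germline paralogue of Ctcf, rests on 4.88 against 11.1 counts, near the detection limit of 3. FVB.D300.F1 against C57.D300.F2 had Ahcy called lower (-1.08), 1 of 45 beside 17.6%.

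Genes with the profile most like each of the methylation genes over the 5 conditions were sought among 14964 genes with at least 10 counts in all of them. Likeness was the root mean square difference of centred log2 values, given as a description with 1 value per condition. Trim28 was nearest to Upf1 (0.015), an RNA helicase of nonsense-mediated decay, Dnmt3a to Bap1 (0.016), a deubiquitinase, Tet3 to Snx17 (0.018) and Dnmt1 to Casp2 (0.019), a caspase. Such profiles were common, with 756 genes within 0.1 log2 units of Trim28, 718 of Dnmt3a, 532 of Tet2, 431 of Tet3 and 403 of Dnmt1. Uhrf1 was nearest to Ddx28 (0.021), Tet2 to Tfcp2l1 (0.021), Dnmt3b to Gm10845 (0.015) and Tet1 to Dtx3 (0.034). Zfp57 had the fewest genes near it, 42 within 0.1, the nearest being the flavin monooxygenase Fmo2 (0.056), with 928, 1545, 1130, 783 and 654 counts. Dnmt3l had too few counts to enter.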

How the data were processed

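All-RNA-seq libraries of cauda sperm (25, in 5 conditions) were processed by the authors, who clipped adapters, mapped reads to mm10 by strand with TopHat and quantified them with Cuffdiff (base calling with CASAVA 1.8.2, per the submitters' notes). The annotation release and Cuffdiff options are not given in the sources used here. The deposited signal is 1 scaled estimated fragment count per gene and condition, with its variance under Cuffdiff's model. In all, 15 columns (count, variance, status) were used, and 0 columns belonged to samples outside the series. Conditions were taken from the sample titles.

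Log2 ratios used a pseudocount of 1, a minimum of 10 counts in 1 of both conditions and a threshold of 1 log2 unit. The model SD of a difference is the root of the summed variances. Failed estimates (71 genes) were treated as missing. The detection limit was set at 3 counts and covers counting error only. With 1 value per condition, no test, p-value or SD between libraries could be had. Exon lengths and positions are those of GENCODE M21 (GRCm38), and promoters those of RefSeq. All 10 genes were named by rule, genes of 5 wider lists were named where they passed the threshold, and the nearest profile was given for each gene with enough counts. The 10 genes, the wider lists and 9 marker lists were chosen with earlier results of these data known. Alternatives were equal totals, median-of-ratios and upper-quartile scaling, pseudocounts of 0.1 and 10, a minimum of 100 counts or none, a threshold of 2, and model SD criteria. Python 3.11.15, numpy 2.4.6 and pandas 2.3.3 were used.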

Additional observations from a re-analysis of the deposited data

How the results depend on the processing

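No paired analysis was possible because the deposited table holds 1 value per condition, so that libraries could neither be left out in turn nor blocked by replicate number. All 400 recomputed log2 ratios of single genes moved by less than their model SD. This limit is wide. The SD was 0.47 or more, while the scalings moved the median of all genes by 0.32 at most. For changes of scaling the outcome was thus nearly fixed in advance, and several directions flipped within it. Medians over the genes compared have no SD of their own. With equal totals they went from 0.04 to -0.09 after DEHP in FVB/N, from 0.03 to 0.18 after DEHP in C57BL/6J, from 0.25 over 9 genes to 0.56 over 10 for the F2 against F1 controls and from 0.18 to 0.36 against the exposed F1, from 0.13 to 0.01 for FVB.CTL.F1 against C57.D300.F2 and from 0.25 to -0.01 for FVB.D300.F1 against it, and with a minimum of 100 counts from 0.03 to -0.04 over 6 genes after DEHP in C57BL/6J and from 0.13 to 0.42 over 5 genes for FVB.CTL.F1 against C57.D300.F2. Of the 80 recomputed counts of called genes, 66 stayed within 1.5 times and 14 did not. For C57.D300.F2 against C57.CTL.F1 the count went from 0 to 1 under equal totals and upper-quartile scaling (Dnmt3l) and to 1 by the model SD alone (Tet1), a criterion added after seeing the data. For FVB.CTL.F1 against C57.CTL.F1 it went from 1 to 0 with a pseudocount of 10, a minimum of 100 counts, a threshold of 2 or the model SD as a further condition, and to 3 by the model SD alone. For FVB.D300.F1 against C57.D300.F1 it went from 1 to 0 with a pseudocount of 10, a minimum of 100 or a threshold of 2, and to 7 by the model SD alone. For FVB.D300.F1 against C57.D300.F2 it went from 0 to 1 under equal totals (Zfp57) and to 2 by the model SD alone. The strain difference in DEHP ratio went from 0 to 1 gene under equal totals (Zfp57). The cause was not tested, apart from the minimum of 100 counts, which by construction removes Dnmt3l and Zfp57.

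Scaling to equal totals moved the median of all genes by 0.15 in C57BL/6J after DEHP, where 9 of 9 genes then lay above 0 in place of 5, and by -0.13 in FVB/N, where 2 of 10 did in place of 7. It moved it by 0.32 for C57.D300.F2 against C57.CTL.F1, 0.17 against C57.D300.F1, 0.19 between the strains' controls, and -0.13 and -0.26 for FVB/N against C57.D300.F2. Upper-quartile scaling moved it by up to 0.21. Directions that flipped over scalings after DEHP were those of Dnmt1, Uhrf1, Dnmt3a and Tet2 in C57BL/6J and of Dnmt1, Dnmt3a, Dnmt3l, Tet2 and Tet3 in FVB/N. Against C57.D300.F2, those of Uhrf1, Dnmt3l and Tet2 flipped for FVB.CTL.F1 and of Dnmt3b, Dnmt3l and Tet2 for FVB.D300.F1. The fewest counts limit Dnmt3l, Zfp57 and Dnmt3b, and the smallest of these, 4.58, is close to the detection limit of 3.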
